A study of Mus musculus with 3 samples.

Results

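The genes described here are 41 genes that cells switch on as they prepare for and pass through mitosis, out of 27998 genes counted in single cells of the newborn mouse cortex. They were taken from a list of G2/M phase genes and matched by symbol to the gene names in the deposited files, where all 41 were found. The members fall into 7 roles: Cdk1 and its partners (6 genes), the anaphase-promoting complex (APC/C) and spindle checkpoint (4), Aurora kinases and their partners (5), centromere and kinetochore (6), spindle motors and microtubule proteins (10), cytokinesis (4) and chromosome structure (6).

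Dorsal cortex was taken from pups at postnatal day 2, and 1 library was made per genotype, 3 in all. In the control, which is labelled WT, Map2k1 and Map2k2 were floxed. The Emx1-Cre mutant is labelled Emx1-Cre; MAP2k1/2-dcko, and the hGFAP-Cre mutant is labelled hGFAP-Cre; MAP2k1/2-dcko. Map2k1 and Map2k2 encode MEK1 and MEK2, the kinases that activate ERK. Emx1-Cre acts in dorsal cortical progenitors from early in neurogenesis, and hGFAP-Cre acts in radial glia later in gestation. In all 3 groups FlashTag, a dye taken up by cells that line the ventricle, had been injected at E18.0, and tdTomato+ cells were sorted at P2. The labels name neither the allele that carries tdTomato nor the number of pups, and they do not say which part of either gene the deletion removes. Map2k1 was at 16.6 CPM (UMIs of a gene scaled to the same total of all UMIs) in control cells, 13.9 in Emx1-Cre cells and 16.3 in hGFAP-Cre cells, where the Emx1-Cre value lay below the control by more than counting error and the hGFAP-Cre value did not. Map2k2 was at 196, 217 and 214 CPM, above the control in both mutants. Both genes thus still gave UMIs in each library, and counts of reads at the 3' end do not check a deletion placed elsewhere in a gene.

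Cells divide in a fixed order: DNA is copied in S phase, and after a gap called G2 the chromosomes are condensed, attached to a spindle and pulled apart in mitosis. Cdk1 with a B-type cyclin drives entry into mitosis, the Aurora kinases build and correct the spindle, and the APC/C, loaded by Cdc20, ends mitosis by marking its targets for destruction. Most of these genes are held silent by the DREAM complex in resting cells and switched on late in the cycle by B-Myb and FoxM1, through a promoter element called the CHR that often stands a short way from CCAAT boxes bound by NF-Y. In the perinatal cortex the dividing cells are radial glia and young astrocytes, intermediate progenitors, multipotent and oligodendrocyte progenitors, cells bound for the olfactory bulb, and, outside the neural lineages, microglia and cells of growing vessels. Neurons and ependymal cells have left the cell cycle.

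Promoters are shown for 5 members on which the comparisons turn: Cdk1, which starts mitosis; Mki67 and Top2a, which were more than 2-fold lower in intermediate progenitor-like cells of both mutants; Kif11, a spindle motor; and Birc5, which was not called lower in those cells. Promoter sequence of GRCm38.p6 came from RefSeq, where 35 of the 41 members had an entry. Each line gives the 250 bases before the start, 5′ to 3′ on the strand of the gene, with CHR letters (TTTGAA or TTCGAA, or TTCAAA on the other strand) and CCAAT boxes (CCAAT, or ATTGG on the other strand) in capitals. The stretches are Cdk1 (chr10:69352913-69353162, minus strand), Mki67 (chr7:135716380-135716629, minus strand), Top2a (chr11:99024190-99024439, minus strand), Kif11 (chr19:37376132-37376381, plus strand) and Birc5 (chr11:117848987-117849236, plus strand).
Cdk1: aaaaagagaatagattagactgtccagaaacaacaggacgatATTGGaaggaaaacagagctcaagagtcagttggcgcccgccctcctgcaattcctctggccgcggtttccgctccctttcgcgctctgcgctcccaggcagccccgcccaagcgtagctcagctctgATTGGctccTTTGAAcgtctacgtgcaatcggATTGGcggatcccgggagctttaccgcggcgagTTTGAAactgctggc
Mki67: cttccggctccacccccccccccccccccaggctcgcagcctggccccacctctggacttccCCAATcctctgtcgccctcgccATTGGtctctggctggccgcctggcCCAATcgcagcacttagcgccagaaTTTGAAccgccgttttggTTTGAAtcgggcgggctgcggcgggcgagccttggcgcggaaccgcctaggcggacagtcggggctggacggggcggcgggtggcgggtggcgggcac
Top2a: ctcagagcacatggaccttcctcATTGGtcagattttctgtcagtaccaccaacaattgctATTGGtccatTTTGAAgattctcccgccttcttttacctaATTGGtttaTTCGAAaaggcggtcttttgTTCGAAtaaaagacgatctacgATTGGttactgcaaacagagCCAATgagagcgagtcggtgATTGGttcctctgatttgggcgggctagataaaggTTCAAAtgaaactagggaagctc
Kif11: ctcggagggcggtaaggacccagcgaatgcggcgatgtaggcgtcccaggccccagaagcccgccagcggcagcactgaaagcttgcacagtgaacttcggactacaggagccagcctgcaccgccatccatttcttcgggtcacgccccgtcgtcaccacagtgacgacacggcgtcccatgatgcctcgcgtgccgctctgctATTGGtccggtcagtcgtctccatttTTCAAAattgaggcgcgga
Birc5: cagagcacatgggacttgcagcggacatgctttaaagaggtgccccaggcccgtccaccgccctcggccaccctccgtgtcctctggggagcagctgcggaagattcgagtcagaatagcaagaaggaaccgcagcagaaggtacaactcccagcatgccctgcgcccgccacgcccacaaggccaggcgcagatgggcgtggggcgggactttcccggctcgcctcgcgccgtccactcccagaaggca

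Over the window from 250 bases before to 50 after the start, 28 of the 35 promoters (80.0%) held the CHR letters on either strand, against 19.4% of 27025 promoters in the table. CCAAT was found on either strand in 27 (77.1%), against 37.9% of all promoters, and both motifs in 24 (68.6%), against 7.70%. TTCGAA reads the same on both strands, and a CCAAT box may share end bases with a CHR. The Birc5 stretch held neither motif. Nor did those of Nusap1 and Tacc3, which were called lower in intermediate progenitor-like cells of the Emx1-Cre mutant. Cdk1 and Cks1b held both motifs and were not called lower there. A link between motifs and levels was not tested. A match of letters is a description of the sequence and shows no binding.

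The control library held 11886 barcodes and 85480826 UMIs, the Emx1-Cre library 13214 and 84016524, and the hGFAP-Cre library 13139 and 89917586. The median kept cell had 6427, 4989 and 5308 UMIs in that order. The lowest barcode had 500 UMIs in control, 2644 in Emx1-Cre and 3065 in hGFAP-Cre cells, so that cells were called at unequal depth. The libraries shared 43 to 54 barcode sequences in pairs. With 1 library per genotype no test between genotypes was possible: intervals are exact 95% intervals of the counts, cover counting error only, and do not include the spread between animals. Both mutants were set against the same control library.

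Cells were clustered without histone genes and the genes of the cell cycle lists, and the clusters were named from marker lists. Each class name thus stands for cells that resemble that type. Other genes whose levels follow the members stayed in, so clusters could still part by cell cycle. The 24 clusters gave 10 classes and 2 unnamed clusters. Cluster 14 was the larger unnamed one, with 1029 control cells against 15 Emx1-Cre and 14 hGFAP-Cre cells. All 16 astroglia markers were raised in it, but Egfr and Olig2 were among its 10 leading genes. Astroglia-like cells are therefore given with and without cluster 14.

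Summed over all kept cells, the members made up 3212 CPM (3199 to 3224) in control, 2985 (2973 to 2997) in Emx1-Cre and 2723 (2711 to 2735) in hGFAP-Cre cells. The 3 sums were close, but the cells that held them were not the same. A cell was called rich when at least 5 of 2500 UMIs drawn from it belonged to the members, which is a range of a score and not a cell type. Of 1200 rich control cells, 38.0% lay in the unnamed clusters, 26.7% among oligodendrocyte-lineage and multipotent progenitor-like cells, 11.4% among intermediate progenitor-like and 10.2% among astroglia-like cells. Of 2531 rich Emx1-Cre cells, 43.0% were astroglia-like, 32.0% ependymal-like and 17.8% intermediate progenitor-like. Of 1698 rich hGFAP-Cre cells, 48.1% were intermediate progenitor-like, 18.3% astroglia-like, 17.7% ependymal-like and 10.7% of the oligodendrocyte and multipotent class.

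**Figure D1:**
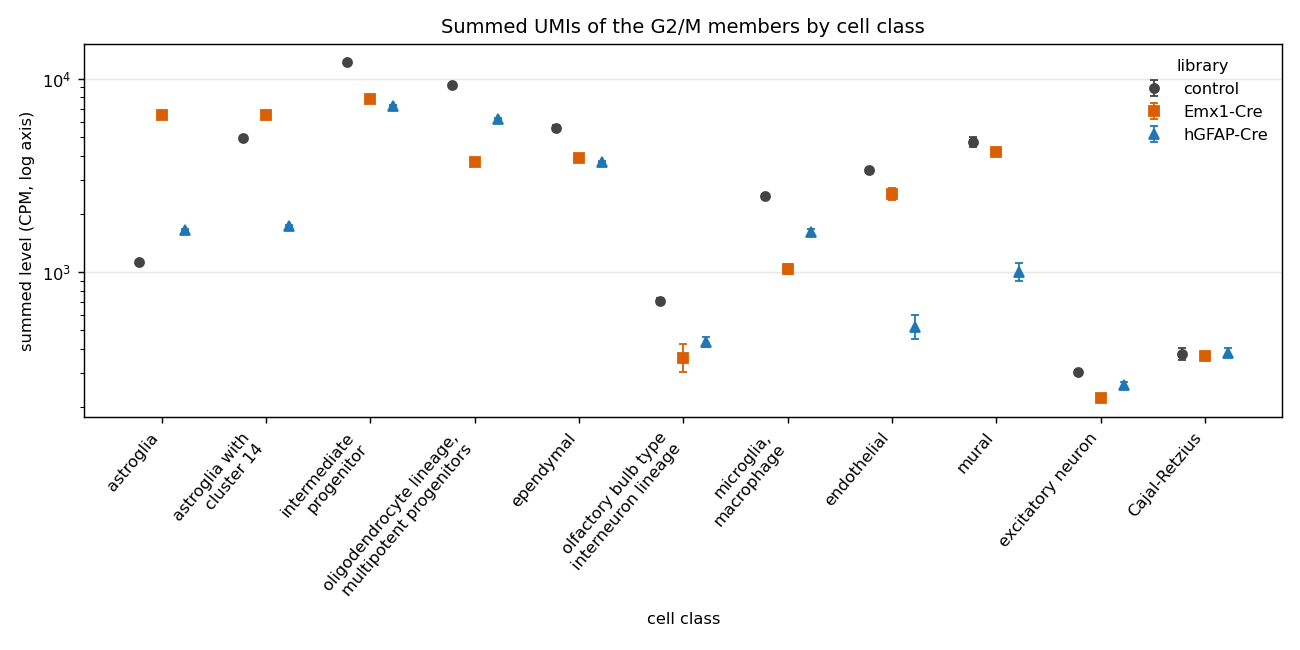
Summed level of the 41 members in each cell class (horizontal axis) in CPM on a log axis, 1 point per library, with exact Poisson 95% intervals of the counts. Intermediate progenitor-like cells stood highest, from 7263 to 12208 CPM, and excitatory neuron-like cells lowest, from 223 to 306 CPM.

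Intermediate progenitor-like cells, which amplify the output of radial glia by dividing again before they become neurons, had the highest level of the members of any named class in every library, and both mutants were below the control. The summed members were at 12208 CPM (12076 to 12341) in 276 control cells, 7860.2 (7788 to 7933) in 1119 Emx1-Cre cells and 7263 (7222 to 7305) in 2334 hGFAP-Cre cells. The Emx1-Cre level was 1.55-fold lower (1.53 to 1.58) and the hGFAP-Cre level 1.68-fold lower (1.66 to 1.70). A member was counted when it reached 10 CPM in at least 1 of the libraries compared, and it was called lower or higher from a 1.5-fold difference on, with 5 CPM added to both values. A member that passed this minimum in only 1 library could be called only as higher in that library. In the Emx1-Cre mutant 29 of 41 members were lower and 0 higher, where 18.4% of all genes lay lower and 6.85% higher. In the hGFAP-Cre mutant 29 of 41 were also lower and 0 higher, against 13.3% and 7.59% of all genes. The median member had a log2 ratio of −0.83 and −0.80, against −0.18 and −0.11 for all genes. Among cells with at least 2000 detected genes 7 and 15 members were lower.

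The difference was uneven across roles. Spindle motors and microtubule proteins were lower in 10 of 10 members in the Emx1-Cre and 9 of 10 in the hGFAP-Cre mutant, and the chromosome structure genes in 6 of 6 in both. Kif11, the motor that pushes spindle poles apart, was at 132 CPM in control, 62.4 in Emx1-Cre and 69.4 in hGFAP-Cre cells. Top2a, which untangles replicated DNA, was at 590 (561 to 619.5), 263 (250 to 277) and 259 (251 to 267) CPM, which was 2.24-fold and 2.28-fold lower. Mki67, the coat protein of mitotic chromosomes that is stained as Ki-67, was at 333, 122 and 130 CPM. Hmgb2, a chromatin protein abundant in dividing cells, gave the most UMIs of any member and was at 3859, 2144 and 2063 CPM. In each of these 4 genes the mutant intervals lay below the control interval.

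Among centromere and kinetochore genes 5 of 6 were lower in each mutant. Cenpf, a large protein of the outer kinetochore, was at 534, 307 and 271 CPM. Cenpa, the histone that marks the centromere, was the exception, at 518, 473 and 414 CPM. Cenpe, a kinetochore motor, was at 182, 64.5 and 74.1 CPM. With Mki67 and Cdca2, which brings a phosphatase to chromosomes and was at 65.1, 18.1 and 21.4 CPM, it formed the 3 lowest log2 ratios in both mutants, from −1.60 to −1.24.

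Of the kinase core, Cdk1 and its partners, 1 of 6 was lower in the Emx1-Cre and 3 of 6 in the hGFAP-Cre mutant. Cdk1 itself was at 321 (300 to 344), 287 (273 to 301) and 280 (272 to 289) CPM. Ccnb2, a B-type cyclin, was at 160, 128 and 107 CPM. Cks1b, a small subunit of Cdk complexes, was at 348, 394 and 384 CPM, the highest log2 ratio of any member in both mutants (0.18 and 0.14). For Cdk1 and Cks1b neither mutant passed the 1.5-fold threshold.

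Of the Aurora group 2 of 5 were lower in each mutant. Aurkb, the kinase of the chromosomal passenger complex, was at 144, 72.8 and 94.0 CPM. Its partner Birc5, also called survivin, was at 356 (334 to 379), 378 (363 to 395) and 351 (342 to 360.5) CPM, so that of these partners Aurkb was called lower in both mutants and Birc5 in neither. Tpx2, which activates Aurora A on the spindle, was at 292, 144 and 148 CPM. In the APC/C and checkpoint group 3 of 4 and 2 of 4 were lower. Cdc20, the activator of the APC/C, was at 247, 155 and 143 CPM, and Ube2c, the enzyme that hands ubiquitin to it, at 831, 773 and 577 CPM. Of the cytokinesis genes 2 of 4 were lower in each mutant. Prc1, which bundles the microtubules of the central spindle, was at 288, 168 and 175 CPM.

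**Figure D2:**
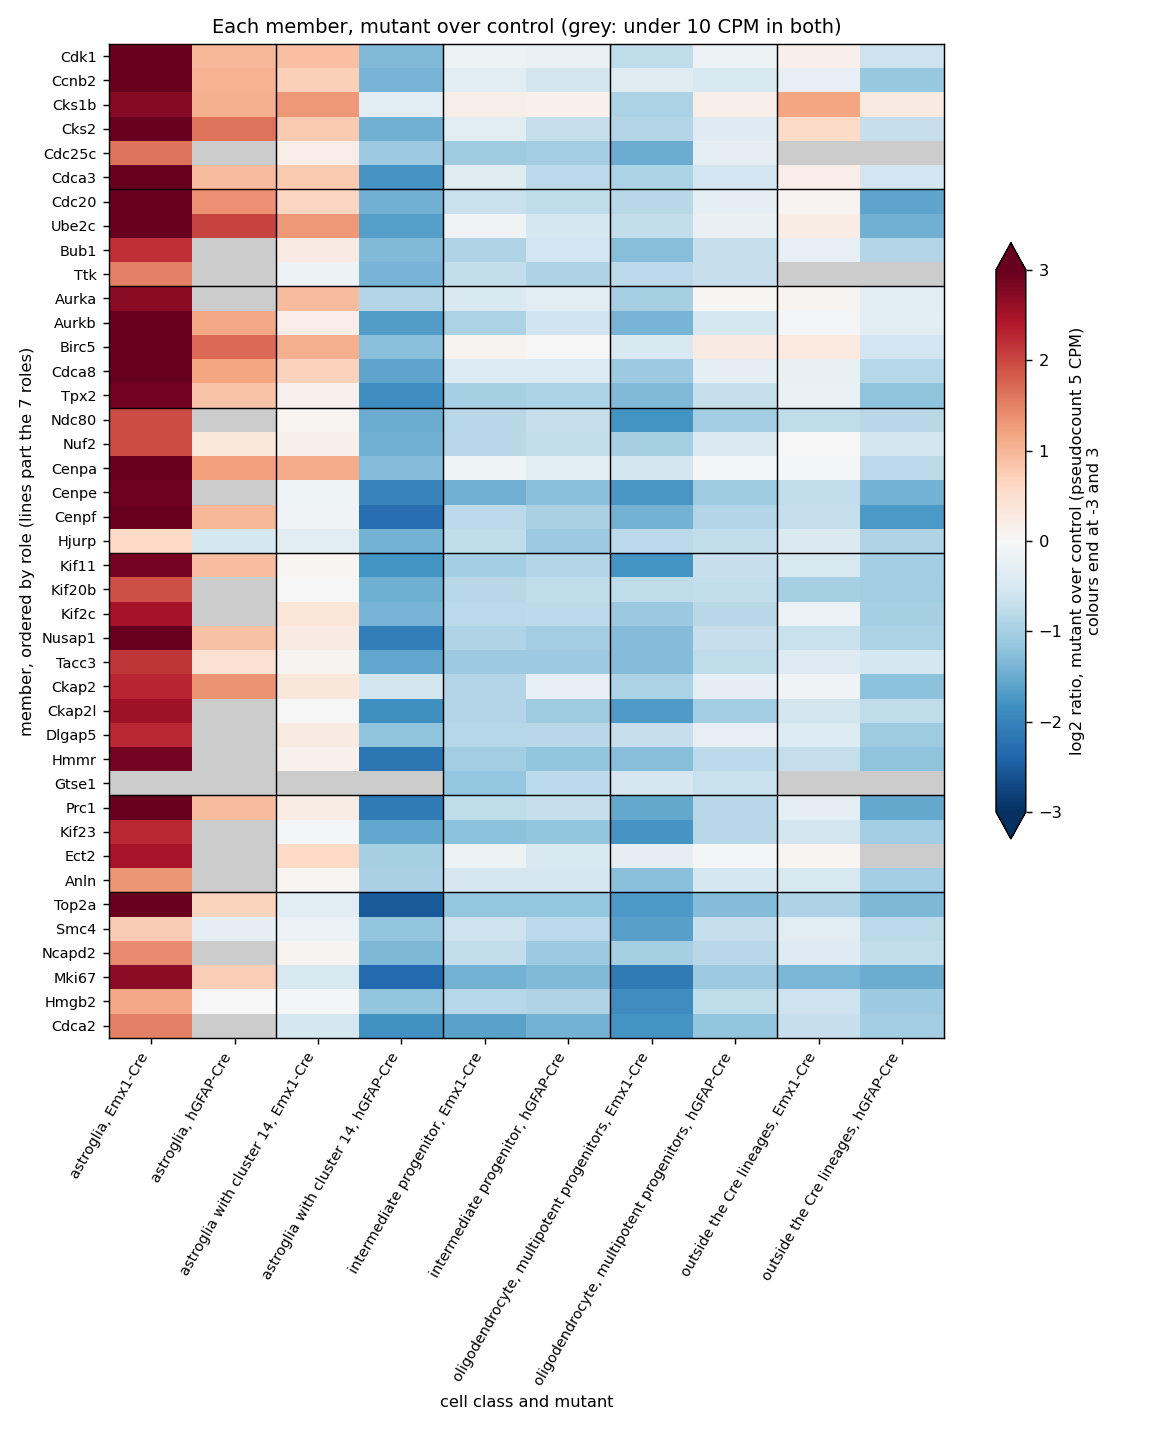
Log2 ratio of mutant over control (colour, pseudocount 5 CPM) for the 41 members (rows, ordered by role) in 5 sets of cells and both mutants (columns), with grey where a member was under 10 CPM in both libraries. The intermediate progenitor columns are blue for 29 of 41 members, and the astroglia columns change colour when cluster 14 is joined.

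The intermediate progenitor class consisted of clusters 11 and 2, and their mix differed between libraries. Cluster 11 held most of the member UMIs, with 131, 375 and 875 cells, and cluster 2 held 145, 744 and 1459. Within cluster 11 the summed members were at 19551 CPM in control, 15815 in Emx1-Cre and 13771 in hGFAP-Cre cells, which was 1.24-fold and 1.42-fold lower. There 13 of 41 members were lower in the Emx1-Cre mutant, beside 21.5% of all genes, and 20 of 41 in the hGFAP-Cre mutant, beside 17.8%. Mki67 was at 545, 258 and 256 CPM there and Top2a at 968, 562 and 523, while Cdk1 was at 532, 621 and 565 and Birc5 at 586, 793 and 696. Within cluster 2 the sums were 1181, 1272 and 994 CPM. There 0 of 19 members were lower and 7 higher in the Emx1-Cre mutant (20.4% and 8.51% of all genes), and 5 of 16 lower and 3 higher in the hGFAP-Cre mutant (14.7% and 7.26%). The share of cells from the dividing cluster and the level within it thus both moved with the class value.

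The share of rich cells in the class was 50% (43.9 to 56.1) for control, 40.3% (37.4 to 43.2) for Emx1-Cre and 35.0% (33.1 to 37.0) for hGFAP-Cre cells. Without thinning it was 73.9%, 47.8% and 50.7%. A rich cell held a mean of 46.8 member UMIs of 2500 in control, 34.9 in Emx1-Cre and 34.5 in hGFAP-Cre cells. Within cluster 11 the rich share was 90.1% in control, 91.2% in Emx1-Cre and 77.6% in hGFAP-Cre cells. Excitatory neuron-like cells, which do not divide, gave a background of 0.57%, 0.24% and 0.36% rich cells at median depths of 5734, 3394 and 3899 UMIs.

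**Figure D3:**
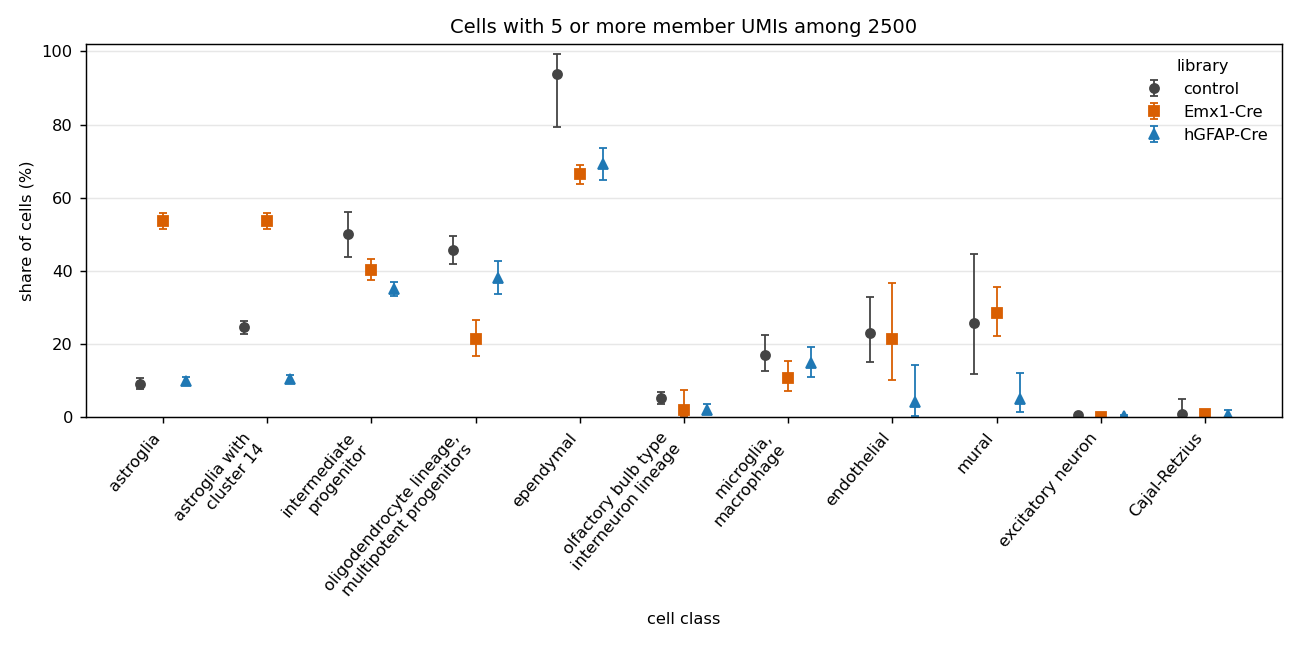
Share of cells (%) with at least 5 member UMIs among 2500 drawn UMIs, by cell class and library, with exact Clopper-Pearson 95% intervals. Intermediate progenitor-like cells stood at 50%, 40.3% and 35.0%, and astroglia-like cells at 9.16%, 53.7% and 10.1% until cluster 14 was joined to them.

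Other cell cycle genes in these cells shared the direction to unequal degrees. Of 37 further mitotic genes outside the 41, 20 were lower and 1 higher in each mutant, with Incenp, the scaffold of the passenger complex, at 127, 37.3 and 43.5 CPM and Kif18b, a motor that shortens microtubules, at 20.5, 3.87 and 5.25 CPM. The gene that was higher in both was Pttg1, securin, which guards sister chromatids until anaphase, at 24.2, 338 and 80.0 CPM. Of the S phase genes 20 of 41 were lower in the Emx1-Cre and 9 of 41 in the hGFAP-Cre mutant, beside 18.4% and 13.3% of all genes. Their medians were −0.47 and −0.29. Mcm5, a subunit of the replicative helicase, was the lowest of them, at 77.0, 26.0 and 28.3 CPM. In cluster 11 the summed S phase genes were at 4650, 4114 and 4671 CPM.

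Of the 11 regulators of G2/M transcription, 4 of 10 counted genes were lower in the Emx1-Cre and 3 of 11 in the hGFAP-Cre mutant. Of all genes 18.4% and 13.3% were lower. Foxm1, the activator of many members, was at 48.4, 19.5 and 19.6 CPM, and Mybl2, which encodes B-Myb, at 17.5, 4.92 and 8.06 CPM. Cdkn1a, the p21 inhibitor of Cdk complexes, was at 30.4 and 38.4 CPM in control and Emx1-Cre cells of cluster 11 and at 496 CPM in hGFAP-Cre cells. Ccnd2, a D-type cyclin of G1, was at 840, 267 and 422 CPM over the whole class.

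In astroglia-like cells the member levels depended on where cells of 1 cluster were placed. Without cluster 14 the summed members were at 1128 CPM (1107 to 1148) in 1346 control cells, 6473 (6434 to 6512) in 2025 Emx1-Cre cells and 1658 (1641 to 1675) in 3092 hGFAP-Cre cells. The Emx1-Cre level was 5.74-fold higher (5.63 to 5.85) and the hGFAP-Cre level 1.47-fold higher (1.44 to 1.502). Of 40 counted members 40 were higher in the Emx1-Cre mutant, where 12.1% of all genes were higher. In the hGFAP-Cre mutant 19 of 24 were higher, beside 10.1% of all genes. A member under 10 CPM in the control, such as Mki67, entered either count only through the mutant library. Such a member could be called higher but not lower. With cluster 14 joined, the members were at 4960.2 CPM in control, 6472 in Emx1-Cre and 1725 in hGFAP-Cre cells. The Emx1-Cre level was then 1.30-fold higher, with 12 of 40 members higher (7.35% of all genes), and the hGFAP-Cre level was 2.88-fold lower, with 38 of 40 lower (14.4% of all genes). The direction in the hGFAP-Cre mutant thus turned with the placing of 1 cluster. Rich cells made up 9.16%, 53.7% and 10.1% of the class without cluster 14, and 24.6%, 53.6% and 10.4% with it.

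Single members followed. Ube2c was at 15.8, 689 and 80.0 CPM without cluster 14 and at 275, 687 and 84.6 CPM with it. Top2a was at 21.6, 202 and 37.0 CPM without and 258, 203 and 41.1 CPM with it. Mki67 was at 9.96, 91.8 and 19.97 CPM without and 129, 91.7 and 21.7 CPM with it. In the Emx1-Cre mutant Mki67 was therefore 9.22-fold higher or 1.41-fold lower, and Top2a 9.39-fold higher or 1.27-fold lower, while Cdk1 stayed higher, at 30.1 and 341 CPM without cluster 14 and 178 and 340 CPM with it. The 3 highest members without the cluster were Ube2c, Birc5 and Cks2 in both mutants, and the 3 with the lowest ratios were Hjurp, a loader of Cenpa, Smc4, a condensin subunit, and Hmgb2. With the cluster, Ube2c, Cks1b and Cenpa were highest in the Emx1-Cre mutant and Cdca2, Mki67 and Top2a lowest. In the hGFAP-Cre mutant Cks1b, Ckap2, a spindle microtubule protein, and Aurka, the Aurora kinase of spindle poles, had the highest ratios, from −0.88 to −0.34.

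The astroglia clusters were nearly private to a library. Cluster 12 was the main one in the control (1235 cells, 846 CPM of members, 6.30% rich), cluster 5 in the Emx1-Cre library (1873 cells, 6676 CPM, 56.5% rich) and cluster 1 in the hGFAP-Cre library (2882 cells, 1199 CPM, 6.77% rich). Cluster 14 of the control was at 8031 CPM with 44.7% of cells rich. Cluster 5 held cells of all 3 libraries, with 72, 1873 and 194 cells. Has2, Tnc and Tagln were among its 10 leading genes and no member was. Whether dividing cells helped to set it apart was not tested. In it 55.7%, 56.5% and 59.3% of cells were rich, a difference smaller than the counting intervals. Its summed members were at 3950 CPM (3818 to 4086), 6676 (6636 to 6717) and 5336 (5244 to 5430). Of its members 27 of 40 were higher in the Emx1-Cre and 20 of 39 in the hGFAP-Cre mutant, beside 11.2% and 11% of all genes. In either mutant 0 were lower. Members under 10 CPM in the control cells of cluster 5, such as Aurka at 5.84 CPM, could be called higher but not lower. The summed S phase genes of cluster 5 lay the other way, at 3443, 2300.4 and 2843 CPM. In cluster 1 the Emx1-Cre mutant had 27 of 34 members higher (16.5% of all genes), and the hGFAP-Cre mutant 7 of 22 lower and 3 higher (17.1% and 13.7%). There too a member under 10 CPM in the control could be called higher but not lower.

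The other mitotic genes were counted with cluster 14 joined. In the Emx1-Cre mutant 0 of 35 were lower and 6 higher (28.7% and 7.35% of all genes), and in the hGFAP-Cre mutant 32 of 34 were lower and 1 higher (14.4% and 11.5%). Of the S phase genes 1 of 39 was lower and 3 higher in the Emx1-Cre mutant, and 28 of 39 lower in the hGFAP-Cre mutant. Gmnn, the inhibitor that keeps DNA from being copied again, was at 65.5 CPM in the control and 158 in the Emx1-Cre library.

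Cells of the oligodendrocyte lineage together with Egfr-expressing multipotent progenitor-like cells, which the study's title places under ERK control, had fewer member UMIs in both mutants. The sums were 9296 CPM (9228 to 9365) in 706 control cells, 3710.4 (3599 to 3825) in 280 Emx1-Cre cells and 6213 (6133 to 6294) in 477 hGFAP-Cre cells. In the Emx1-Cre mutant 36 of 41 members were lower and 0 higher, where 20.9% of all genes fell below the same limit. In the hGFAP-Cre mutant 23 of 41 were lower and 0 higher, where 13.5% were lower. Mki67 was at 289, 62.2 and 132 CPM and Top2a at 566, 168 and 226 CPM. Hmgb2 was at 2720, 741 and 1591 CPM. Birc5 was at 310, 223 and 368 CPM, which made it 1.39-fold lower in one mutant and 1.19-fold higher in the other. The chromosome structure genes were lower in 6 of 6 in both mutants, but Cdk1 and its partners in 5 of 6 and 0 of 6.

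This class was not made of the same cells in each library. Its multipotent cluster 16 held 640 control, 9 Emx1-Cre and 223 hGFAP-Cre cells, and its oligodendrocyte progenitor cluster 17 held 66, 271 and 254. In cluster 16 the members were at 9686 CPM in the control and 8751 in the hGFAP-Cre library, with 9 of 41 members lower and 2 higher, beside 15.4% and 6.33% of all genes. In cluster 17 they were at 4486, 3227 and 3736 CPM. There 17 of 40 members were lower in the Emx1-Cre and 14 of 40 in the hGFAP-Cre mutant, beside 21.6% of all genes in both. In cluster 17, 18.5%, 20.3% and 21.3% of cells were rich. The class value in the Emx1-Cre mutant thus set a class made mainly of cluster 16 in the control against one made mainly of cluster 17. The direction over the whole class turned with cell cycle genes kept in the clustering (28 and 25 members higher in the Emx1-Cre and hGFAP-Cre mutants) and among cells with at least 2000 genes (41 and 31 higher).

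In the olfactory bulb type interneuron lineage, whose cells leave the cycle as they migrate, the members were at 711 CPM in 855 control cells, 360 (303 to 424) in 95 Emx1-Cre cells and 435 (410 to 462) in 508 hGFAP-Cre cells. Only 14 and 12 members reached 10 CPM. Of those 6 were lower and 3 higher in the Emx1-Cre mutant (22.2% and 11.5% of all genes), and 4 were lower and 0 higher in the hGFAP-Cre mutant (14.6% and 7.06%). A member under 10 CPM in 1 library could be called in only 1 direction. Cdk1 and Cdc20, among those higher with Emx1-Cre, were at 7.67 and 5.02 CPM in the control and could not be called lower. Top2a rested on 61, 1 and 3 UMIs. Hmgb2 was at 355, 91.2 and 163 CPM. Rich cells numbered 38 of 734 (5.18%, 3.69 to 7.04), 2 of 95 (2.11%, 0.26 to 7.40) and 10 of 508 (1.97%, 0.95 to 3.59). The Emx1-Cre interval included the control share. Under 5 other ways of clustering or filtering cells, 38 to 40 members were lower with Emx1-Cre and 25 to 40 with hGFAP-Cre.

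Cells outside the Cre lineages served as a reference, since microglia, endothelial and mural cells do not descend from the progenitors in which either Cre acts. These cells were nevertheless present after the sort for tdTomato+ cells, and the labels do not say how they passed it. Their member levels differed between libraries too. Together they held members at 2866 CPM (2818 to 2915) in 376 control cells, 2461 (2401 to 2522) in 466 Emx1-Cre cells and 1398 (1355 to 1442) in 427 hGFAP-Cre cells. The Emx1-Cre mutant had 10 of 38 members lower and 1 higher, beside 23.7% and 11.8% of all genes, so its share of lower members was near that of all genes. Among cells with at least 2000 genes 1 member was lower and 9 higher. The hGFAP-Cre mutant had 30 of 37 lower and 0 higher, beside 16.6% and 6.49%, with a median log2 ratio of −0.99 against −0.13 for all genes. In the intermediate progenitor-like cells of that mutant the median was −0.80.

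Mki67 was the lowest member in the Emx1-Cre mutant outside the lineages, at 112 (103 to 122) CPM for control, 40.4 (33.0 to 48.9) for Emx1-Cre and 36.8 (30.1 to 44.6) for hGFAP-Cre cells. Cks1b was the highest in both, at 89.3, 210 and 109 CPM. In the hGFAP-Cre mutant the 3 lowest were Cenpf, at 109, 64.0 and 29.4 CPM, Cdc20, at 44.9, 47.7 and 11.6 CPM, and Prc1, at 66.8, 54.7 and 19.6 CPM. Birc5 was at 151, 187 and 99.2 CPM. Rich cells made up 19.5% (15.5 to 23.9), 19.1% (15.6 to 23.0) and 11.7% (8.82 to 15.1) of these cells. The rich share of the Emx1-Cre library thus lay within the control interval.

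The reference mixed 3 cell types in unequal parts: 241, 232 and 298 microglia and macrophage-like cells, 99, 42 and 48 endothelial-like cells, and 36, 192 and 81 mural-like cells. In microglia and macrophage-like cells the members were at 2464, 1039 and 1610 CPM, with 28 of 35 lower in the Emx1-Cre mutant (29.2% of all genes) and 21 of 36 in the hGFAP-Cre mutant (16.5%). This class held a macrophage cluster, 22, with 156 Emx1-Cre and 79 hGFAP-Cre cells and 0 control cells. In its microglia cluster, 18, the members were at 2464, 1808 and 1971 CPM, with 15 of 36 lower and 3 higher in the Emx1-Cre mutant (27.3% and 11.9%) and 7 of 37 lower and 2 higher in the hGFAP-Cre mutant (15.6% and 8.95%). Its rich share was 17.2%, 23.7% and 18.3%.

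Endothelial-like cells held members at 3353 CPM in control, 2531 in Emx1-Cre and 523 (451 to 604) in hGFAP-Cre cells. With Emx1-Cre 19 of 38 were lower and 0 higher (22.9% and 10.3% of all genes), and in the hGFAP-Cre mutant 38 of 38 were lower and 0 higher (18.5% and 14.3%). Top2a rested on 240, 23 and 1 UMIs. Rich endothelial-like cells numbered 22 of 95, 9 of 42 and 2 of 48. Mural-like cells held members at 4692, 4195 and 999 CPM, with 15 of 40 lower and 4 higher in the Emx1-Cre mutant (37.6% and 15.5%) and 39 of 40 lower in the hGFAP-Cre mutant (30.2%). Rich mural-like cells numbered 8 of 31, 55 of 192 and 4 of 81.

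In the sum over all cells outside the lineages, few S phase genes were called in either direction. With Emx1-Cre 0 of 36 were lower and 5 higher, beside 23.7% and 11.8% of all genes. In the hGFAP-Cre mutant 3 of 31 were lower and 3 higher, beside 16.6% and 6.49%. Beside the same shares of all genes, 5 of 31 other mitotic genes were lower and 2 higher in the Emx1-Cre mutant. In the hGFAP-Cre mutant 20 of 31 were lower. Knstrn, a kinetochore adaptor, was at 36.6 CPM in control and 8.41 CPM in hGFAP-Cre cells. In hGFAP-Cre endothelial-like cells 20 of 35 S phase genes were lower and 1 higher (18.5% of all genes lower). In mural-like cells 24 of 36 were lower and 1 higher (30.2%), the direction of the members. With Emx1-Cre 4 of 36 were lower and 7 higher in endothelial-like cells (22.9% and 10.3% of all genes). In mural-like cells of that mutant 9 of 40 were lower and 12 higher (37.6% and 15.5%). In microglia and macrophage-like cells 5 of 29 were lower and 2 higher with Emx1-Cre (29.2% and 10.2%). With hGFAP-Cre 0 of 30 were lower and 8 higher there (16.5% and 10.1%).

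Ependymal-like cells, which grow many cilia and no longer divide, were rich in members. The class held 32 control, 1218 Emx1-Cre and 434 hGFAP-Cre cells, and its members summed to 5539, 3898 and 3706 CPM. The rich share was 93.8%, 66.4% and 69.4%. Of 40 members 15 were lower and 1 higher in the Emx1-Cre mutant (27% and 13% of all genes) and 21 lower in the hGFAP-Cre mutant (17.3%), against a control of few cells. The rich cells lay in cluster 13, where Foxj1, Mcidas, Ccno and Myb, all part of the program of multiciliated cells, were high. In the Emx1-Cre cells of that cluster Foxj1 was at 733 CPM, Myb at 373, Ccno at 145 and Mcidas at 86.5. Foxm1 was at 5.94, 5.48 and 5.50 CPM there, against 79.3, 41.5 and 37.5 in the dividing cluster 11. The S phase genes summed to 909, 775 and 985 CPM, against 4650, 4114 and 4671.

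The members that made up the ependymal signal were a selection. In rich Emx1-Cre cells Cks2 gave 12.9% of member UMIs in ependymal-like cells and 6.16% in intermediate progenitor-like cells. Cdk1 gave 9.52% and 3.33%, Top2a 8.52% and 3.17%, and Ckap2l, a microtubule protein of the spindle pole, 4.90% and 0.65%. The reverse held for Mki67, with 0.18% and 1.45%, Nusap1, which bundles microtubules at chromosomes, with 0.18% and 1.75%, Cdca3, a trigger of mitotic entry, with 0.46% and 2.73%, and Birc5, with 1.14% and 4.86%. Rich hGFAP-Cre cells gave 8.12% and 3.34% for Cdk1 and 0.17% and 1.74% for Mki67. In level, Cdk1 was at 370, 347 and 295 CPM in ependymal-like cells while Mki67 was at 22.2, 6.24 and 5.17 CPM. Ependymal-like cells of both mutants thus held Cdk1 at or above the class average of intermediate progenitor-like cells, with little Mki67. That average mixed the dividing cluster 11 with cluster 2. In cluster 11 alone Cdk1 was higher, at 621 CPM in Emx1-Cre and 565 CPM in hGFAP-Cre cells.

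**Figure D4:**
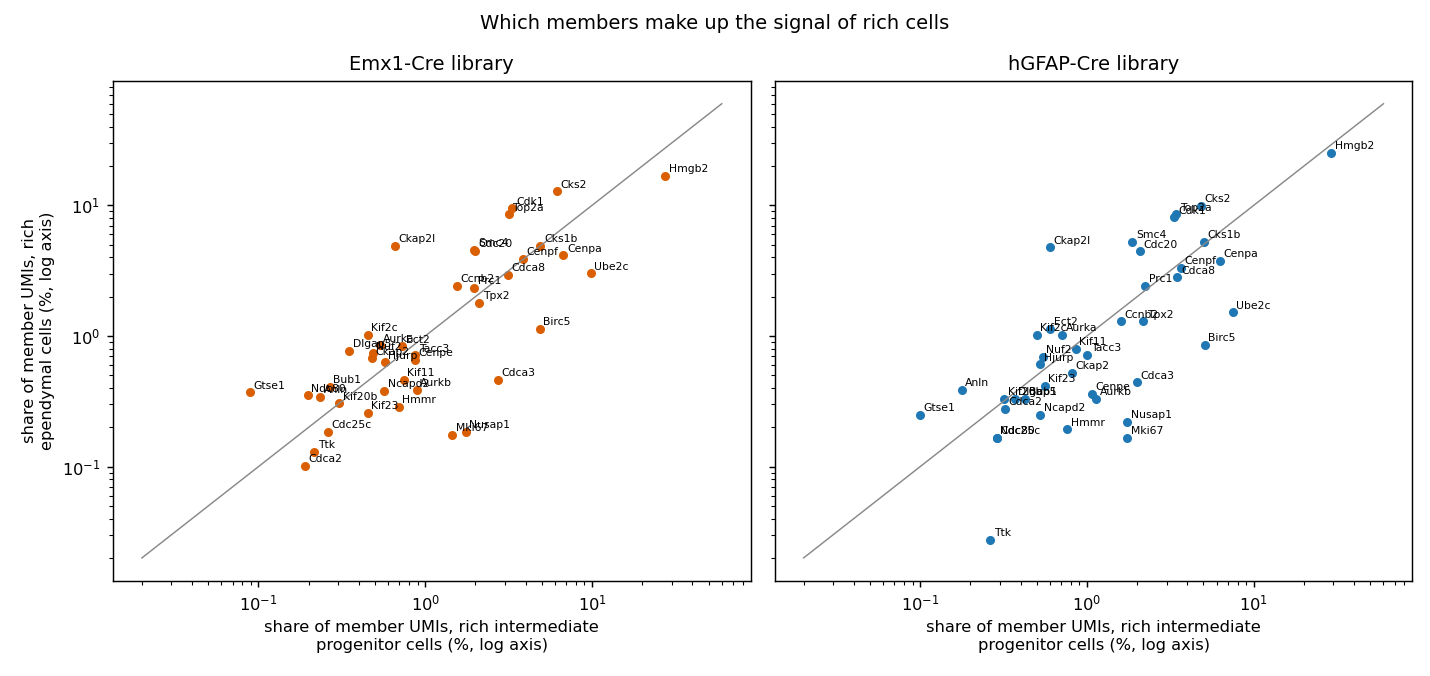
Share of each member in the member UMIs of rich intermediate progenitor-like cells (horizontal, %, log axis) and rich ependymal-like cells (vertical, %, log axis), 1 point per member, for the Emx1-Cre and hGFAP-Cre libraries, with the line of equal shares. Cdk1, Top2a, Cks2 and Ckap2l lie above the line, and Mki67, Nusap1, Cdca3 and Birc5 below it.

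Cells that do not divide still showed which members are not specific to mitosis. In control excitatory neuron-like cells Ncapd2, a condensin subunit, was at 20.2 CPM, 50.9% of its level in the progenitor classes. Hjurp was at 31.5% of that level, Cks1b at 23.6%, Smc4 at 14.1% and Kif20b, a kinesin of the midbody, at 11.2%, while Mki67 was at 0.94%, Top2a at 0.81% and Cdk1 at 1.52%. Of 6 members that reached 10 CPM in these neurons, 3 were lower and 1 higher with Emx1-Cre (19.2% and 5.58% of all genes), and 1 lower and 1 higher with hGFAP-Cre (11.3% and 4.56%). Cks1b was the higher one with either Cre, at 42.2, 71.2 and 74.5 CPM. In Cajal-Retzius-like cells, the early-born neurons of the marginal zone, the members summed to 379, 367 and 384 CPM. Cenpf alone was at 192 (173 to 211) CPM in control, 140 (132 to 148) in Emx1-Cre and 167 (153 to 181) in hGFAP-Cre cells. In the control this was 74.7% of its progenitor level, while Mki67 was at 3.34 CPM, 2.14% of its own. Of 8 members that reached 10 CPM there, 0 were lower and 1 higher with Emx1-Cre (15% and 5.42% of all genes), and 1 lower and 2 higher with hGFAP-Cre (15.7% and 5%). Gtse1, a microtubule protein of G2 that also restrains p53, was the higher one with Emx1-Cre and 1 of the 2 with hGFAP-Cre, at 4.76, 12.03 and 11.1 CPM. It reached 10 CPM only in the mutants and rested on 10 UMIs in the control, so its call was fixed by the minimum and is not read as a difference. Rich cells made up 0.93%, 0.91% and 0.53% of Cajal-Retzius-like cells after thinning and 82.2%, 11.6% and 28.6% before it, at median depths of 18722, 6079 and 8920 UMIs.

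The shares of single members among the member UMIs of rich cells also differed between libraries. Each mutant was set against the same control library in 3 sets of cells, so the 6 ratios of a member are not independent and are given side by side. In rich intermediate progenitor-like cells Mki67 gave 2.70% of member UMIs in control, 1.45% in Emx1-Cre and 1.74% in hGFAP-Cre cells. In the oligodendrocyte and multipotent class it gave 3.10%, 2.08% and 2.20%, and outside the lineages 4.95%, 1.90% and 2.39%. The mutant shares of Mki67 were thus below the control share in each set. Cdk1 gave 2.48%, 3.33% and 3.34% in intermediate progenitor-like cells, 2.77%, 4.50% and 3.43% in the oligodendrocyte and multipotent class, and 3.86%, 4.89% and 6.14% outside the lineages. Birc5 gave 3.40%, 4.86% and 5.09%, then 3.44%, 7.85% and 6.22%, and then 5.97%, 9.45% and 8.99%. As log2 ratios of mutant over control share, Top2a ran from −0.69 to −0.19, Cenpf from −0.95 to −0.14 and Cenpa from 0.01 to 0.90. Other members lay on both sides of 0: Nusap1, which ran from −0.48 to 0.86, Tacc3, a microtubule protein of the spindle, from −0.30 to 0.43, Smc4, from −0.69 to 0.73, and Cks1b, from −0.30 to 1.51.

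These shares moved with transcript length. Across members with at least 15 UMIs the log2 share ratio had a Pearson correlation with the median annotated transcript length of −0.66 to −0.42 in the 6 comparisons (19 to 39 members, which share libraries, given without a p). Cks2 has a median length of 692 bases and Cdk1 of 1253, against 5221 for Top2a and 5318 for Mki67. All genes at 50 CPM or more showed the same trend in each of 11 classes. Those under 1000 bases had a median log2 ratio of 0.07 to 0.21 with Emx1-Cre and 0.05 to 0.20 with hGFAP-Cre, and those over 5000 bases −0.76 to −0.16 and −0.39 to −0.02. The part of this shift in the ratios of single long members such as Mki67, Top2a and Cenpe, and of short ones such as Cks1b and Cks2, was not tested. Birc5 had a median length of 2140.5 bases over its annotated transcripts, and the length of the transcripts present in these cells was not measured.

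**Figure D5:**
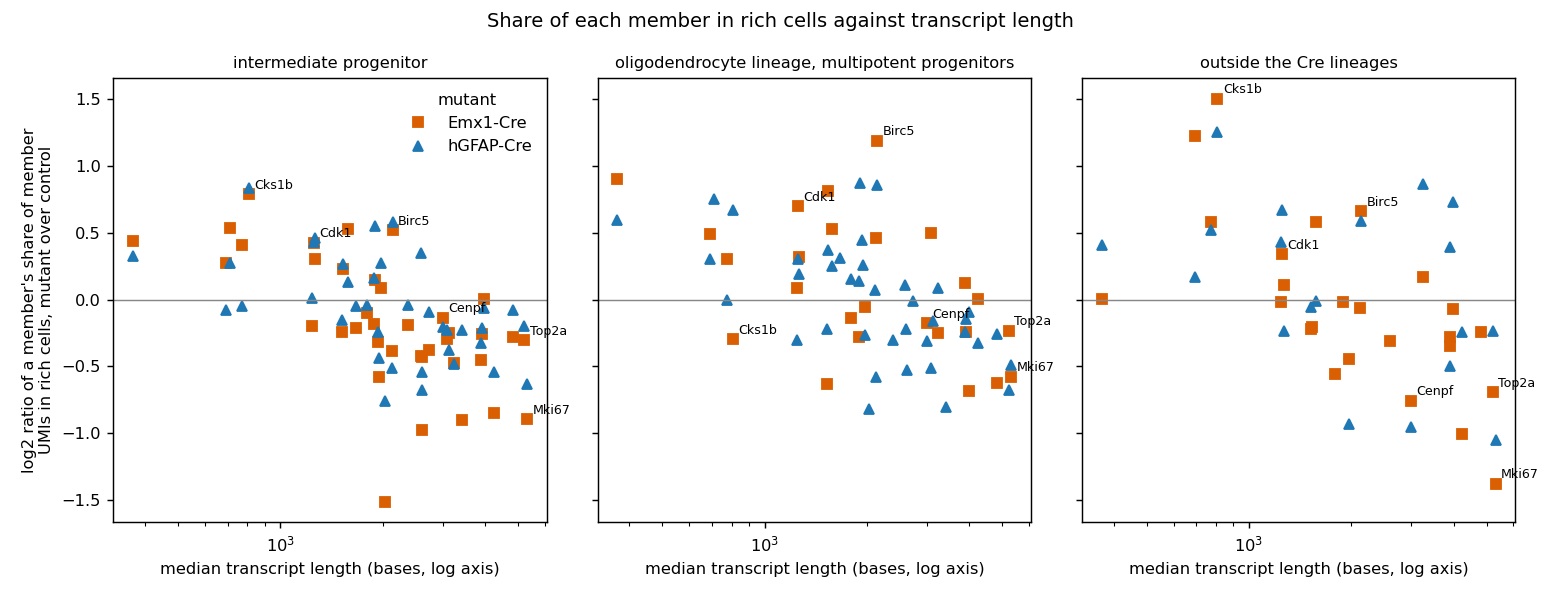
Log2 ratio, mutant over control, of each member's share of member UMIs in rich cells (vertical) against its median annotated transcript length in bases (horizontal, log axis), for 3 sets of cells and both mutants, 1 point per member. Mki67, a long member, lies at −1.38 to −0.49, and Cdk1, a shorter one, at 0.31 to 0.70.

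Over the 30 sums of a class in a library, most members followed one another. The correlation of a member with the other members, on log2 values, was highest for Tpx2 (0.99) and lowest for Gtse1 (0.61), Cenpf (0.69), Ncapd2 (0.80) and Cks1b (0.84). The 10 genes outside the list whose pattern was most like the summed members were Casc5, Aspm, Plk1, Ccnb1, Kpna2, Spc25, Pbk, Sgol2a, Smc2 and Knstrn, with correlations of 0.95 to 0.98. These points share libraries and depth, and the values are descriptions.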

How the data were processed

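Cells of dorsal cortex at postnatal day 2 were profiled in 3 10x libraries, 1 per genotype. The authors deposited UMI counts of each gene in each barcode without normalization. These came from Cell Ranger 5.0.0, per the file headers, and build mm10, per the submitters' processing notes. Groups came from the sample titles and genotype labels.

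Filters required 1000 genes per cell and a mitochondrial share under 10%. Scrublet in scanpy 1.11.5 (expected rate 10%) then marked 4.44% of the control cells that had passed, 7.64% of the Emx1-Cre cells and 8.71% of the hGFAP-Cre cells as doublets. Without them 9519, 12191 and 11991 cells were left. Variable genes (2000, without cell cycle and histone genes) gave 30 principal components, a graph of 15 neighbours and Leiden clusters at resolution 1 (leidenalg 0.10.2, igraph 0.11.9, scikit-learn 1.9.0). Clusters were named by the class, out of 14, with the most raised markers (2-fold and 25% of cells), with at least 3 needed. A cluster stayed unnamed where another class had more markers among its 10 genes of highest fold, which left out cluster 14 (Egfr and Olig2 against Hes5) and cluster 19. Astroglia-like cells hold radial glia and astrocytes alike.

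Counts were summed per class with at least 30 cells and given as CPM. A log2 ratio used a pseudocount of 5 CPM. Rich cells came from cells thinned to 2500 UMIs, which left out 532 control cells and 0 mutant cells. Intervals are exact: Poisson for sums, conditional for ratios, Clopper-Pearson for shares. They cover counting error only, and a count of 0 allows up to 3 counts. The scripts were tested on simulated data. Python 3.11.15, numpy 2.4.6, scipy 1.17.1, pandas 2.3.3 and matplotlib 3.10.9 were used. Gene models and promoters came from reference annotation of GRCm38, the build of mm10, and transcript lengths are medians over a gene's annotated transcripts.

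The members, the other gene lists and the marker lists were chosen with earlier results of these data known. Named are 14 members with 1 or more per role, the 3 lowest and 3 highest of a comparison, and up to 3 genes of each other list. Other genes named (Foxj1, Mcidas, Ccno, Myb, and the members of the ependymal, neuron and rich-cell share comparisons) were chosen after their values were seen. Other clusterings, filters, pseudocounts and cuts were tried.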

Additional observations from a re-analysis of the deposited data

Results flagged for a closer look

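In the Emx1-Cre library the summed members were 5.74-fold higher than in the control in astroglia-like cells and lower in other classes of the lineage. The ratio to the control was 0.644 in intermediate progenitor-like cells, 0.507 in the olfactory bulb type interneuron lineage and 0.399 in the oligodendrocyte and multipotent class. Each is a single library against another, so these opposite directions were not tested. With cluster 14 joined to the astroglia-like cells the ratio there was 1.30.

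Barcodes left out as predicted doublets held members above the control level. Rich cells made up 34.0% (31.1 to 37.0) of predicted doublets in Emx1-Cre and 28.6% (26.0 to 31.3) in hGFAP-Cre, against 21.1% (17.3 to 25.3) in control barcodes. Among kept cells the shares were 20.8%, 14.2% and 13.4% in that order.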

How the results depend on the processing

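No paired analysis was possible because each genotype has 1 library. Of 130 recomputed counts of members 94 kept their direction and stayed within 1.5 times the reported count, and of 78 recomputed shares 49 stayed within their counting interval. Ratios of the sums were recomputed only without 5 less specific members. That setting moved 10 shares or ratios past their interval and left 6 within it. Values are given for the Emx1-Cre and then the hGFAP-Cre mutant. Joining cluster 14 and leaving out genes that follow the members were chosen after seeing the data. Naming clusters by mean fold and a pseudocount of 1 CPM moved no result past these limits. The cause of each shift below was not tested.

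Counts of lower members in intermediate progenitor-like cells (29 and 29) moved only with at least 2000 genes per cell, to 7 and 15. The hGFAP-Cre count outside the lineages (30) stayed under every alternative; the Emx1-Cre count (10) was 6 with doublets kept, 5 with a pseudocount of 20 CPM and 1 with 2000 genes, where 9 were higher. In astroglia-like cells the Emx1-Cre count of higher members (40) was 6 with cell cycle genes kept and 12 with cluster 14. The hGFAP-Cre count (19) was 0 with cell cycle genes kept (39 lower), 1 at resolution 2 (3 lower), 1 with libraries clustered alone (15 lower), 0 with cluster 14 (38 lower), 3 with doublets kept, 10 with a pseudocount of 20 CPM and 12 after thinning. In the oligodendrocyte and multipotent class counts of lower members (36 and 23) were 0 and 0 with cell cycle genes kept (28 and 25 higher), 0 and 0 with 2000 genes (41 and 31 higher), 3 (12 higher) and 11 at resolution 2, 22 in the Emx1-Cre mutant with genes that follow the members left out, and 40 in the hGFAP-Cre mutant with libraries alone. In the olfactory bulb type lineage (6 and 4) they were 39 and 34 with cell cycle genes kept, 40 and 37 at resolution 2, 39 and 25 with 2000 genes, 40 and 40 with libraries alone, 38 and 32 with following genes left out, and 13 and 8 with no minimum CPM. The Emx1-Cre count there was 3 with a pseudocount of 20 CPM and 3 after thinning.

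The rich share, mutant minus control in percentage points, was −9.70 and −15.0 in intermediate progenitor-like cells. It was −19.3 and −23.6 with cell cycle genes kept, −25.9 and −30.7 at resolution 2, −19.1 and −21.5 with mitochondrial counts under 5%, and −21.2 and −41.4 with libraries alone. In the Emx1-Cre mutant it was −16.5 with doublets kept, −18.3 with following genes left out, 3.32 with 2000 genes and 5.84 with a cut of 8 among 4000 UMIs. In astroglia-like cells (44.6 and 0.90) it was 26.1 and −16.9 with cell cycle genes kept, 29.0 and −14.2 with cluster 14, 29.9 and −4.72 with a cut of 3, 49.0 and 3.34 with 4000 UMIs, and 40.5 and 2.94 without 5 less specific members (Hmgb2, Cks1b, Cks2, Smc4, Ncapd2). The Emx1-Cre value was 51.7 with 2000 genes, 48.6 with following genes left out and 39.0 with a cut of 10; the hGFAP-Cre value was −4.81 at resolution 2 and −7.70 with libraries alone. Outside the lineages the Emx1-Cre value (−0.35) was 16.5 with 2000 genes and 7.79 with 4000 UMIs.

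Without those 5 members the log2 ratio of the sums was 3.76 and 1.28 in astroglia-like cells, −0.61 and −0.72 in intermediate progenitor-like cells, −1.15 and −0.55 in the oligodendrocyte and multipotent class, and −0.26 and −1.15 outside the lineages, each with its direction kept. Clustered alone, the hGFAP-Cre library gave 0 endothelial-like and 0 mural-like cells and the control 0 mural-like cells. Values in classes of under 100 cells rest on few dividing cells, and depth did not allow differences of single members under 10 CPM to be read.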
